A study of Homo sapiens with 8 samples.

Results

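The unfolded protein response restores the folding capacity of the endoplasmic reticulum, the compartment in which secreted and membrane proteins fold. Described here are 10 of its genes, the transcription factor XBP1 and 9 genes for chaperones, cochaperones, a disulfide isomerase and components of protein degradation in that compartment (HSPA5, HSP90B1, CALR, SDF2L1, DNAJB9, DNAJC3, PDIA4, HERPUD1 and SEL1L). They were chosen by name, with earlier results of these data known. Their probes are the non-control ones that carry one of these gene names on the array, and the probe with the highest mean over the arrays stood for each gene. All 10 were among the 20464 genes that were tested. They have 13 probes, and the probe used for each gene was well above background on all 8 arrays. Cells of HuCCT1, an established human intrahepatic cholangiocarcinoma line, carried one of 4 retroviral short hairpin vectors, with 2 single-colour Agilent arrays for each vector. The vectors shControl and shNontarget made up the control, and shBEX2-1 and shBEX2-2, both directed against BEX2, made up the BEX2 knockdown. The comparisons ask which genes changed when BEX2, a small protein of the BEX family studied for its part in dormant cancer stem cells, was depleted in this line. The study lists target sequences for the hairpins that are largely the same stretch of BEX2 written on opposite strands, and each knockdown is a single subline. The study describes its control hairpin as directed against luciferase without saying which of the control vectors that was, and it leaves unsaid whether a vector's 2 arrays are separate cultures, so that p-values measure the spread between these arrays, which may be technical.

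When unfolded proteins accumulate, 3 sensors in the membrane of the endoplasmic reticulum respond. IRE1, the product of ERN1, splices the XBP1 messenger RNA so that it encodes an active transcription factor, ATF6 is cut in the Golgi and travels to the nucleus, and PERK phosphorylates eIF2 alpha, which lowers translation in general while the messenger RNA of ATF4 is translated more. XBP1 and ATF6 are known to raise the genes for chaperones, folding enzymes and degradation components, in part through the endoplasmic reticulum stress response element in their promoters, whereas ATF4 acts on amino acid metabolism and on DDIT3, the gene for CHOP. Array probes read the total messenger RNA of a gene. The splicing of XBP1, the cleavage of ATF6 and protein levels were not measured.

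The promoter sequences are shown because genes with the same element had fold changes of both signs. The genes were picked as members of a response known to act in part through this element. How often they hold it is therefore not independent of their choice. All 10 genes matched the RefSeq promoter table of GRCh38.p14, with 12 promoter windows, each from 250 bases before to 50 bases after the transcription start. Exact letter patterns were searched on both strands. The endoplasmic reticulum stress response element was searched as CCAAT and CCACG separated by any 9 bases, and its second form as ATTGG and CCACG separated by any 1 base. The first was present in 27 of 35116 promoters (0.0769%) and in 4 of the 10 genes, HSPA5, HSP90B1, CALR and XBP1. The second was present in 19 promoters (0.0541%) and in HERPUD1 and SDF2L1. Both forms end in the same 5 letters, but no matches overlapped in these windows. The unfolded protein response element, searched as TGACGTGG, was in 256 promoters (0.729%) and with A as its last base, TGACGTGA, in 158 (0.45%), and neither was in a window of the 10 genes. The sequences below read in the direction of the gene, 5′ to 3′, with the matches in capitals. HSP90B1 and XBP1 share the first form, HERPUD1 and SDF2L1 the second, and within each pair the fold changes in BEX2-knockdown cells had opposite signs, although that of XBP1 did not pass the test. HSPA5, whose level did not pass the test, is the textbook carrier of the first form.
HSP90B1: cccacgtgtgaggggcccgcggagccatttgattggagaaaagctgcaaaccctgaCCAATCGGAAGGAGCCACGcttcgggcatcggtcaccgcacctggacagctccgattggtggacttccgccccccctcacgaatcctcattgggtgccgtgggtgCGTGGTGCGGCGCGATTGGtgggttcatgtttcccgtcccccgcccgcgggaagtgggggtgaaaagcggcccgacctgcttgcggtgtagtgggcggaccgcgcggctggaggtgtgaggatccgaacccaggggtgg
XBP1: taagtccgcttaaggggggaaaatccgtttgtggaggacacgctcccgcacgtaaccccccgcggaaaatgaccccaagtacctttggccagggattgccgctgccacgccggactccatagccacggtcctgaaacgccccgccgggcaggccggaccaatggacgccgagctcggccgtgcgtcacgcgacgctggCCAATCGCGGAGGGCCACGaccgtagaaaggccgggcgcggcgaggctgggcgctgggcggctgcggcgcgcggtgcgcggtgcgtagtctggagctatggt
HSPA5: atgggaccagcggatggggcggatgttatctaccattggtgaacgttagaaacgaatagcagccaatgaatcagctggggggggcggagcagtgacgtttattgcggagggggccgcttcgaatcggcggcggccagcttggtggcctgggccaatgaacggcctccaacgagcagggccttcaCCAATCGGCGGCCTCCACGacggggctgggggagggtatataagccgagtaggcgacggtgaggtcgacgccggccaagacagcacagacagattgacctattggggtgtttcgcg
SDF2L1: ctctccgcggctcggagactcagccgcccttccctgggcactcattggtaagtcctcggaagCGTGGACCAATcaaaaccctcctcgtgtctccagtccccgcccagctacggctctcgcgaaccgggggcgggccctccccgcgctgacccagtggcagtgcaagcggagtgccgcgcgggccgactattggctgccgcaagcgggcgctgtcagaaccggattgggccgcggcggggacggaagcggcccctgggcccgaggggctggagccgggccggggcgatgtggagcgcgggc
HERPUD1: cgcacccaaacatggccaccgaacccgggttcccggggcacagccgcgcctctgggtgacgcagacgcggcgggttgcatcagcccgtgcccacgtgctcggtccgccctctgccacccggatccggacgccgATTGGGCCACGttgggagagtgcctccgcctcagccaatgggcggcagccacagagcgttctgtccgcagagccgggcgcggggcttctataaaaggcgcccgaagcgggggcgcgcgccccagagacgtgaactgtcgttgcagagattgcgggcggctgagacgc
These windows lie at chr12:103930160-103930459 on the + strand for HSP90B1, chr22:28800520-28800819 on the - strand for XBP1, chr9:125241294-125241593 on the - strand for HSPA5, chr22:21642052-21642351 on the + strand for SDF2L1 and chr16:56931892-56932191 on the + strand for HERPUD1. HSP90B1 has 2 matches, which begin 194 and 89 bases before the start. The match of XBP1 begins 52 bases before the transcription start in the window shown, and the other XBP1 window of the table held none. The match of HSPA5 begins 66, that of SDF2L1 188 and that of HERPUD1 117 bases before the start. A match describes letters only and does not show that a factor binds there. The lack of an exact match in a window does not show that a gene lacks the element.

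**Figure D1:**
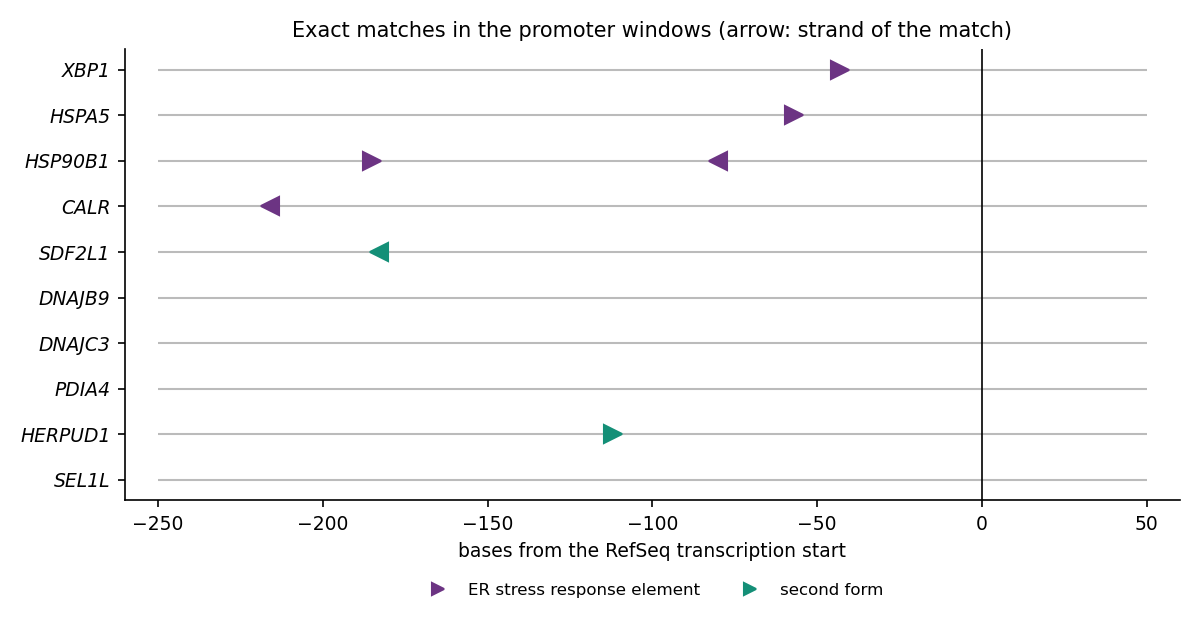
Positions of exact matches to the 2 forms of the endoplasmic reticulum stress response element in the promoter windows of the 10 genes, in bases from the RefSeq transcription start, with arrows pointing along the strand of the match. Of the 10 genes, 6 hold a match, and HSP90B1 holds 2, while DNAJB9, DNAJC3, PDIA4 and SEL1L hold none.

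BEX2 itself had processed intensities of 71.0 and 55.7 on the shControl arrays and of 115 and 48.8 on the shNontarget arrays. It had 11.9 and 11.1 on the shBEX2-1 arrays, not well above background, and 20.4 and 26.0 on the shBEX2-2 arrays, so that it was lower on all 4 knockdown arrays (limma adjusted p = 0.0116) but well above background on only 2 of them. In shBEX2-1 it was at least 3.83-fold lower than in the control arrays, with the probe's own values, which lay above the lowest signal called well above background, as the bound. Of the 58717 spots that are no controls, the share well above background ranged from 59.8% to 64.6% by array, and none was saturated. The 75th percentile was between 666 and 838 on control arrays and between 441 and 631 on knockdown arrays. Controls and knockdown arrays lay in different rows of the 1 slide, so that slide row and group cannot be told apart. The 2 shNontarget arrays stood apart from each other, with a median absolute log2 difference of 0.71 over all genes and 34.9% of genes over 1, against medians of 0.12 for shControl, 0.15 for shBEX2-1 and 0.11 for shBEX2-2. All 8 markers of biliary epithelium, led by KRT7, were well above background on every array, with intensities that summed to between 633 and 895 times the array's 75th percentile in control and between 854 and 1020 times in knockdown arrays. ALB and 2 others of the 4 hepatocyte markers were well above background on no array, and the sum of the 4 on the same scale was between 0.0416 and 0.0599 in control and between 0.0352 and 0.0456 in knockdown arrays. Of the 5 fibroblast markers, COL1A1 and LUM were well above background on all arrays and COL1A2 and COL3A1 on none, with sums between 0.981 and 1.19 in control and between 0.552 and 1.66 in knockdown arrays. Of 3 leukocyte markers on the array, CD79A was well above background on all arrays and PTPRC on 7, with sums between 2.02 and 3.90 in control and between 2.36 and 3.26 in knockdown arrays. LUM, COL1A2, COL3A1 and CD79A are named here after their values were seen. The part of these in the results was not tested.

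In BEX2-knockdown cells the 10 genes did not move together. CALR, SDF2L1, HSP90B1, DNAJC3 and PDIA4, all of which act on the folding of proteins or in its chaperone cycles, were higher, by between 1.44-fold and 2.40-fold. HERPUD1, a stress-induced component of the degradation machinery, was 1.62-fold lower. XBP1 and DNAJB9, a well-known target of XBP1, had lower means but did not pass the test, and HSPA5, the chaperone whose level is the usual readout of this response, had almost the same mean in both groups. An adjusted p under 0.05 was reached by 6 of the 10 genes (5 higher and 1 lower), where 12.9% of all genes tested did, 6.68% higher and 6.26% lower. The arrays of the groups did not overlap for 7 of the 10 genes, against 22.2% of all genes tested. The median log2 fold change was 0.25 over the 10 genes and 0.027 over all genes. Because the 10 genes were chosen with earlier results of these data known, such counts, here and in the sublines, are not independent of that choice. In these bulk RNA samples, fewer cells with a transcript and less of it per cell cannot be told apart.

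**Figure D2:**
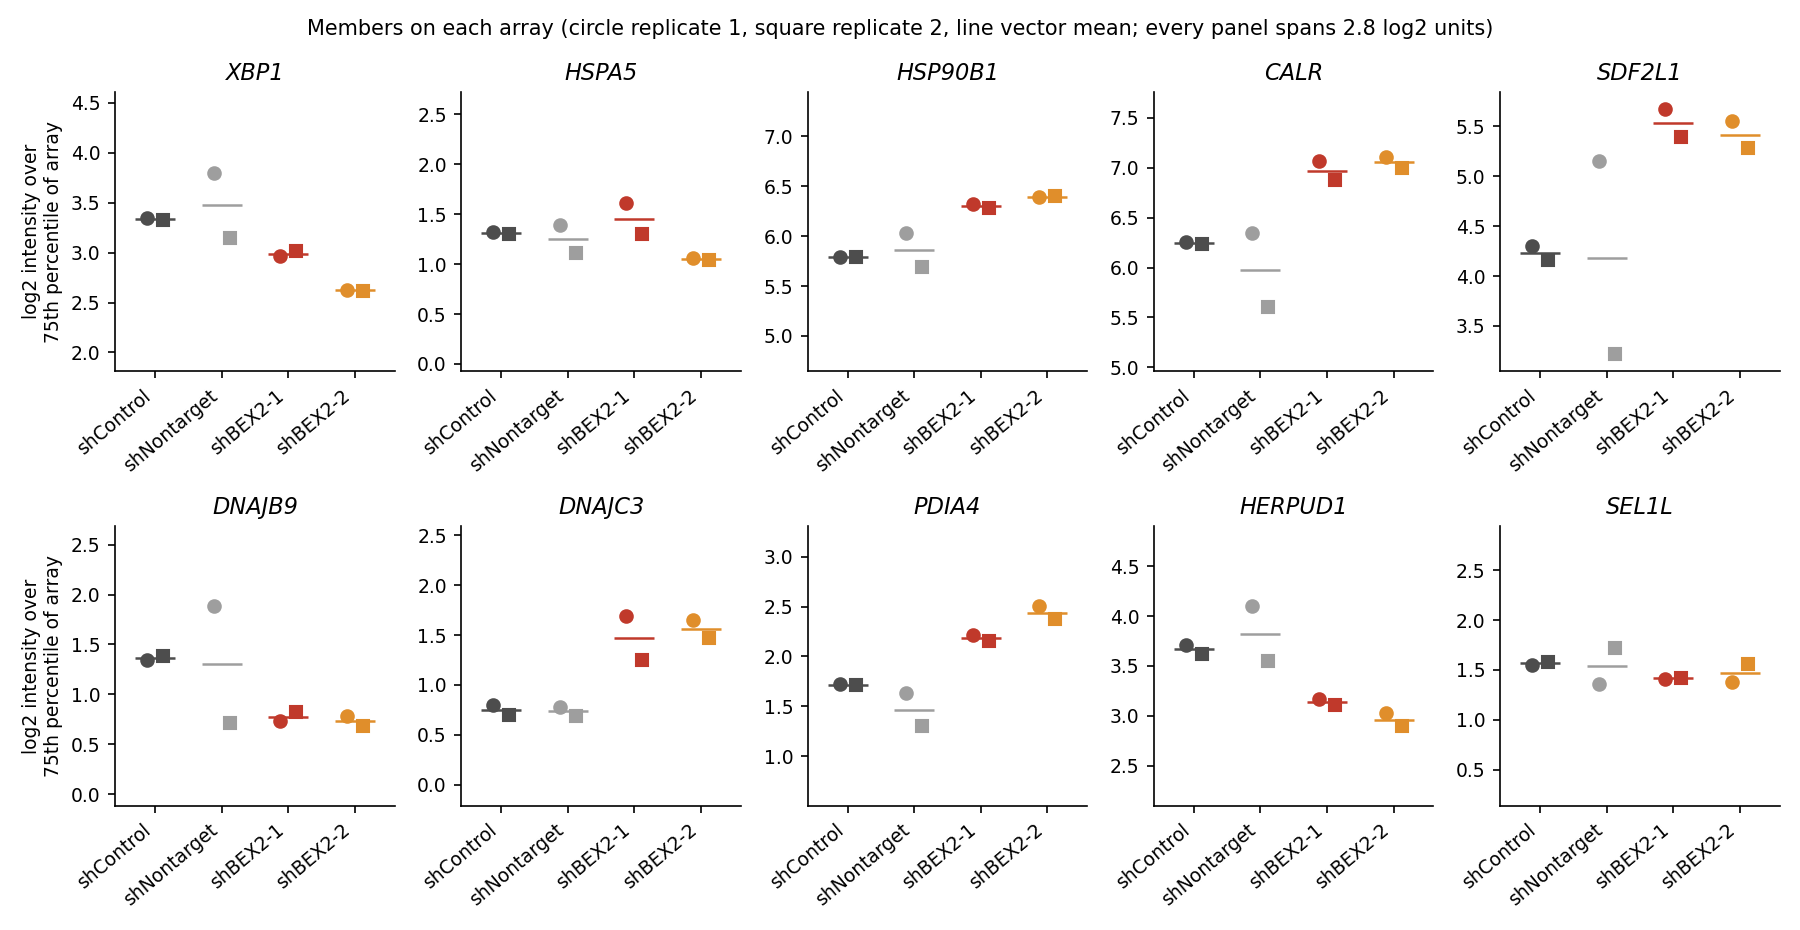
Normalized level of each gene on each array, as log2 intensity over the 75th percentile of the array, for the 4 vectors, with circles for replicate 1, squares for replicate 2 and lines for the mean of a vector. CALR, SDF2L1, HSP90B1, DNAJC3 and PDIA4 sit higher on all 4 knockdown arrays than on any control array, XBP1 and HERPUD1 sit lower, and DNAJB9, HSPA5 and SEL1L overlap.

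XBP1 encodes the transcription factor that the IRE1 arm activates, and its probe at chr22:29190733-29190792 (hg19) was printed on 10 spots of each array. Its normalized level, the log2 intensity over the 75th percentile of the array, was 3.35 and 3.33 on the shControl arrays, 3.80 and 3.15 on the shNontarget arrays, 2.97 and 3.02 on the shBEX2-1 arrays and 2.63 and 2.62 on the shBEX2-2 arrays. The lowest control array, shNontarget replicate 2, was still above the highest knockdown array, and shBEX2-2 was lowest. The log2 fold change was -0.60 (SE 0.17, 95% interval from -0.99 to -0.21, 1.51-fold lower), with an adjusted p of 0.0523 that missed the threshold. It passed without shNontarget replicate 1 (-0.47, adjusted p = 0.0446) and without shNontarget replicate 2 (-0.68, adjusted p = 0.0225), and with shControl alone as control (-0.53, adjusted p = 0.0208), but it did not with shNontarget alone (-0.66, adjusted p = 0.211). With all arrays kept, it passed with quantile normalization (adjusted p = 0.0125), normexp (0.0358), array weights (0.000564) and the vector as a random block (0.0331). Array weights also raised the count of all genes that passed. The random block gave a lower adjusted p than the main fit, so that it added no caution for the 2 arrays of a vector. XBP1 passed in 8 of 22 alternatives in all, the methods' t-test without adjustment among them, and its direction was the same in each of the 22.

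HSPA5 encodes BiP, the HSP70 chaperone of the endoplasmic reticulum, which also holds the sensors inactive. It has 1 probe, at chr9:127997149-127997208 (hg19), so that no other probe could be set beside it. Its level was 1.32 and 1.30 on the shControl arrays, 1.39 and 1.11 on the shNontarget arrays, 1.61 and 1.30 on the shBEX2-1 arrays and 1.06 and 1.04 on the shBEX2-2 arrays. The shBEX2-1 arrays were in or above the range of the controls and the shBEX2-2 arrays below it. The log2 fold change was -0.03 (SE 0.15, adjusted p = 0.928), and its 95% interval ran from -0.38 to 0.32.

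HSP90B1 encodes GRP94, the HSP90 chaperone of the same compartment. Its level at the probe at chr12:104341536-104341595 (hg19) was 5.79 on both shControl arrays, 6.03 and 5.69 on the shNontarget arrays, 6.32 and 6.28 on the shBEX2-1 arrays and 6.39 and 6.40 on the shBEX2-2 arrays. All knockdown arrays lay above all control arrays, and the sublines were close to each other. Knockdown over control gave a log2 fold change of 0.52 (SE 0.14, adjusted p = 0.0359, 1.44-fold higher). A second probe that bears the name HSP90B1 but is placed by the array design on another chromosome, at chr15:99799844-99799903, spanned 1.16 to 1.36 on control arrays and 1.54 to 1.91 on knockdown arrays, a difference of 0.54. Because that position is not the one of the first probe, signal of a related copy cannot be told apart there from that of HSP90B1 itself. The call was lost without any 1 of the shControl or knockdown arrays (adjusted p between 0.0847 and 0.117), with fold changes between 0.505 and 0.546 on the log2 scale. It was also lost with normexp (adjusted p = 0.055), without the filter on dim probes (0.11), in the model of 4 vectors (0.0548) and against shNontarget alone (0.262).

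CALR encodes calreticulin, the lectin chaperone that binds glycoproteins during folding and stores calcium. Its level at the probe at chr19:13055230-13055289 (hg19) was 6.26 and 6.24 on the shControl arrays, 6.35 and 5.61 on the shNontarget arrays, 7.07 and 6.88 on the shBEX2-1 arrays and 7.11 and 7.0 on the shBEX2-2 arrays. The groups did not overlap, and shNontarget replicate 2 lay well below the other control arrays. Its log2 fold change was 0.90 (SE 0.19, adjusted p = 0.0162, 1.86-fold higher). Without shNontarget replicate 2 it was 0.73 (adjusted p = 0.00531). The call was lost without shBEX2-1 replicate 1 (adjusted p = 0.0516), shBEX2-2 replicate 1 (0.0618) or shBEX2-2 replicate 2 (0.0531).

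SDF2L1 encodes a cochaperone that works with HSPA5 and its J proteins and is induced by stress of the endoplasmic reticulum. Its level at the probe at chr22:21998511-21998570 (hg19) was 4.30 and 4.16 on the shControl arrays, 5.15 and 3.22 on the shNontarget arrays, 5.67 and 5.39 on the shBEX2-1 arrays and 5.55 and 5.28 on the shBEX2-2 arrays. The shNontarget arrays lay at both ends of the control range, and the higher of them was only just below the lowest knockdown array. The log2 fold change of 1.26 (SE 0.35, adjusted p = 0.0443, 2.40-fold higher) was the highest of the 10 genes and had the widest interval, from 0.48 to 2.04. It was 1.58 without shNontarget replicate 1 (adjusted p = 0.00339) and 0.93 without shNontarget replicate 2 (adjusted p = 0.029). The call was lost without any 1 of the other 6 arrays (adjusted p between 0.091 and 0.12). It was also lost in the model of 4 vectors (adjusted p = 0.101), without the filter on dim probes (0.072) and without the variance trend (0.0522). Against shNontarget alone (0.229) and by the methods' t-test after Benjamini-Hochberg (0.111) it was lost too.

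Of the J proteins, which hand substrates to HSPA5, DNAJC3 rose and DNAJB9 did not pass the test. DNAJC3 encodes the lumenal J protein known as P58IPK, and its level at the probe at chr13:96443238-96443297 (hg19) was 0.80 and 0.70 on the shControl arrays, 0.78 and 0.69 on the shNontarget arrays, 1.69 and 1.25 on the shBEX2-1 arrays and 1.65 and 1.47 on the shBEX2-2 arrays. The 4 control arrays were almost equal here and all knockdown arrays were above them. This made a log2 fold change of 0.77 (SE 0.13, adjusted p = 0.00632, 1.70-fold higher), and it passed the test without any 1 array. DNAJB9 encodes ERdj4, whose gene is a well-known target of spliced XBP1, and its level at the probe at chr7:108214515-108214574 (hg19) was 1.34 and 1.38 on the shControl arrays, 1.89 and 0.71 on the shNontarget arrays, 0.73 and 0.82 on the shBEX2-1 arrays and 0.78 and 0.68 on the shBEX2-2 arrays. One control array, shNontarget replicate 2, lay inside the range of the knockdown arrays, and the other control arrays lay above it. Knockdown over control gave -0.58 on the log2 scale (SE 0.22, adjusted p = 0.126). Without shNontarget replicate 2 it was -0.79 and passed (adjusted p = 0.00879), without shNontarget replicate 1 it was -0.39 and did not (adjusted p = 0.135), and against shControl alone it was -0.61 and passed (adjusted p = 0.0015).

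PDIA4 encodes ERp72, a protein disulfide isomerase that forms and rearranges disulfide bonds. Its level at the probe at chr7:148700904-148700963 (hg19) was 1.72 and 1.71 on the shControl arrays, 1.63 and 1.30 on the shNontarget arrays, 2.22 and 2.15 on the shBEX2-1 arrays and 2.51 and 2.38 on the shBEX2-2 arrays. The groups did not overlap. Its log2 fold change was 0.73 (SE 0.14, adjusted p = 0.0117, 1.65-fold higher), and it passed the test without any 1 array.

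Genes of endoplasmic reticulum-associated degradation, which returns misfolded proteins to the cytosol for the proteasome, included HERPUD1, which fell, and SEL1L, which did not pass the test. HERPUD1 encodes HERP, a membrane protein that organises the retrotranslocation complex, and its level at the probe at chr16:56977700-56977759 (hg19) was 3.71 and 3.62 on the shControl arrays, 4.10 and 3.55 on the shNontarget arrays, 3.17 and 3.11 on the shBEX2-1 arrays and 3.03 and 2.90 on the shBEX2-2 arrays. All knockdown arrays were below all control arrays. The log2 fold change was -0.69 (SE 0.15, adjusted p = 0.0171, 1.62-fold lower), and the call was lost without shControl replicate 1 (adjusted p = 0.0547), shBEX2-2 replicate 1 (0.0615) or shBEX2-2 replicate 2 (0.0638). SEL1L encodes the adaptor of the ubiquitin ligase HRD1, and its level at the probe at chr14:81939240-81939299 (hg19) was 1.55 and 1.58 on the shControl arrays, 1.36 and 1.72 on the shNontarget arrays, 1.41 and 1.42 on the shBEX2-1 arrays and 1.38 and 1.56 on the shBEX2-2 arrays. All knockdown arrays were inside the range of the controls, and the log2 fold change was -0.11 (SE 0.12, 95% interval from -0.38 to 0.16, adjusted p = 0.604). Its other probes, at chr14:81938061-81938120 and chr14:81945957-81946016, differed between the groups by -0.34 and 0.07, with overlapping arrays in both, so that the 3 probes did not have one direction.

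**Figure D3:**
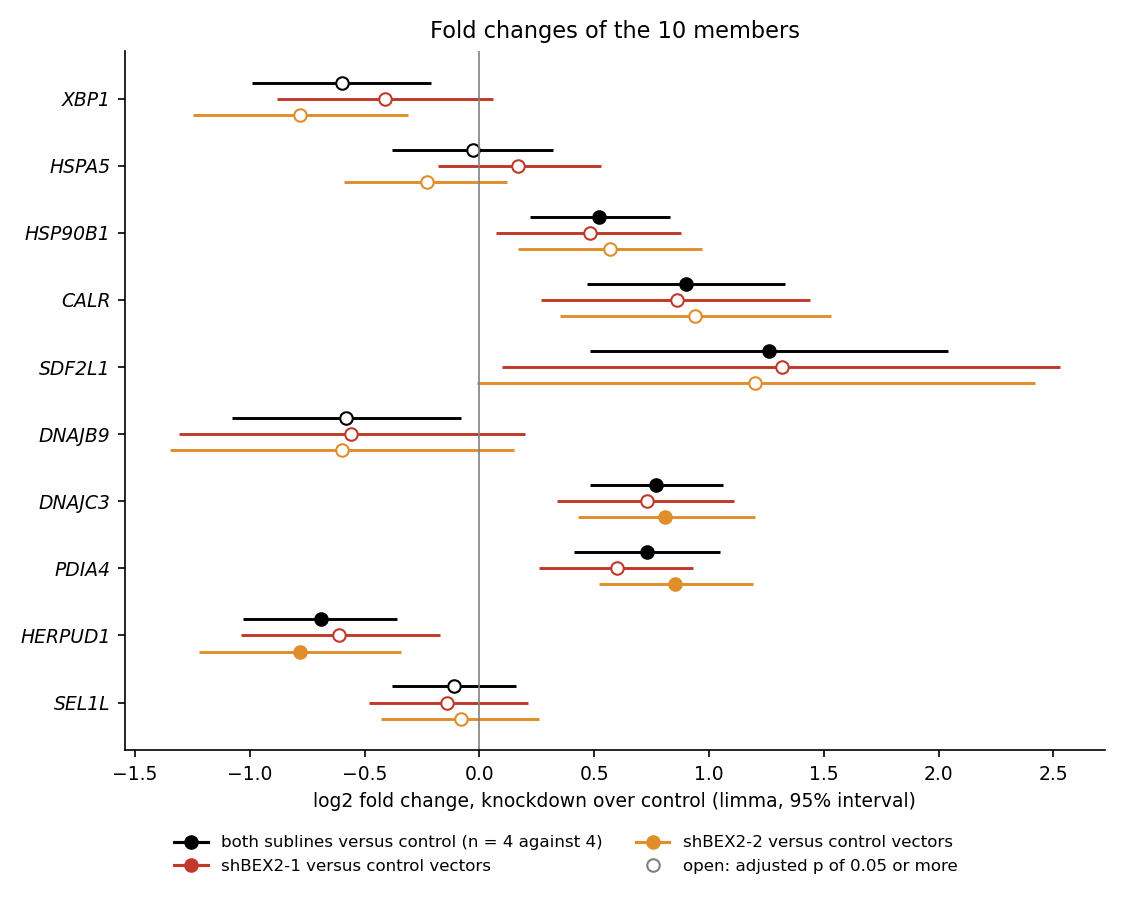
Log2 fold change of each gene with its 95% interval (limma) for both sublines together against control and for each subline against both control vectors, where filled points have an adjusted p under 0.05. The 5 genes that were higher and HERPUD1 lie on the same side of 0 in each subline, and HSPA5 lies on opposite sides.

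Each subline was then set against the 4 control arrays. In the model of 4 vectors, which takes its spread from all of them, shBEX2-1 had no gene of the 10 past the threshold, where 7% of all genes were. An unadjusted p under 0.05 was reached by 6 of the 10, and by 4665 of the 20464 genes (22.8%). DNAJC3 came closest there, at 0.73 (SE 0.16, adjusted p = 0.0504), followed by PDIA4 at 0.60 (adjusted p = 0.0573). In shBEX2-2, 3 of the 10 passed, where 9.67% of all genes did. These were DNAJC3 at 0.81 (adjusted p = 0.0292), PDIA4 at 0.85 (adjusted p = 0.0163) and HERPUD1 at -0.78 (adjusted p = 0.0473). With the replicate number as a block HERPUD1 did not pass (adjusted p = 0.0504). XBP1 was at -0.41 in shBEX2-1 (adjusted p = 0.275) and at -0.78 in shBEX2-2 (adjusted p = 0.0595). CALR was at 0.86 in shBEX2-1 (adjusted p = 0.0975) and at 0.94 in shBEX2-2 (adjusted p = 0.0666). The comparisons share the 4 control arrays and are not independent of each other.

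The counts for the sublines rested on the shNontarget pair. Without shNontarget replicate 1, 9 of the 10 genes passed in shBEX2-1 and 8 in shBEX2-2, and without shNontarget replicate 2, 8 and 9 did. Over all genes, between 10536 and 11149 of the 20464 then passed, so that these counts of the 10 are not a result about them. Without a knockdown or shControl array, between 0 and 1 of the 10 passed in either subline.

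Setting the sublines against each other tests the differences directly, and none of the 10 genes passed, where 2 genes in all did (0.00977%). None of the 10 had an unadjusted p under 0.05 either. The difference was widest for HSPA5, which was 0.41 higher in shBEX2-1 than in shBEX2-2 on the log2 scale (SE 0.17, 95% interval from -0.00 to 0.82, adjusted p = 0.686), and next for XBP1, which was 0.37 higher (SE 0.22, interval from -0.18 to 0.91, adjusted p = 0.928). Without shNontarget replicate 1 the same differences passed, with adjusted p of 0.0381 for HSPA5 and 0.0114 for XBP1, and without shNontarget replicate 2 they passed with 0.0371 and 0.0112, since the model takes its spread from all vectors. For the other 8 genes the intervals spanned 0, the narrowest from -0.64 to 0.13 for PDIA4 and the widest from -1.29 to 1.52 for SDF2L1.

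The control vectors were also set against each other. No gene passed in limma (0%), although 1564 of the 20464 genes had an unadjusted p under 0.05, none of them among the 10. The largest difference of means was in CALR, which was 0.27 lower in shNontarget (adjusted p = 0.961), followed by PDIA4, which was 0.25 lower (adjusted p = 0.854). The 2 shNontarget arrays differed from each other by 1.94 in SDF2L1, 1.19 in DNAJB9, 0.74 in CALR, 0.65 in XBP1 and 0.55 in HERPUD1, and by 0.09 in DNAJC3. For SDF2L1, DNAJB9, XBP1, HSPA5 and SEL1L this gap was wider than the log2 fold change between knockdown and control. In the other 3 vectors no gene of the 10 differed between its arrays by more than 0.44, the value of DNAJC3 in shBEX2-1. Left with 1 shNontarget array, whose spread is then taken from the other vectors, 4 of the 10 passed in this comparison, but so did 9239 and 9466 of the 20464 genes, so that this is not a result about the 10. SDF2L1 was then 0.92 higher than in shControl without replicate 2 and at -1.02 against it without replicate 1.

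**Figure D4:**
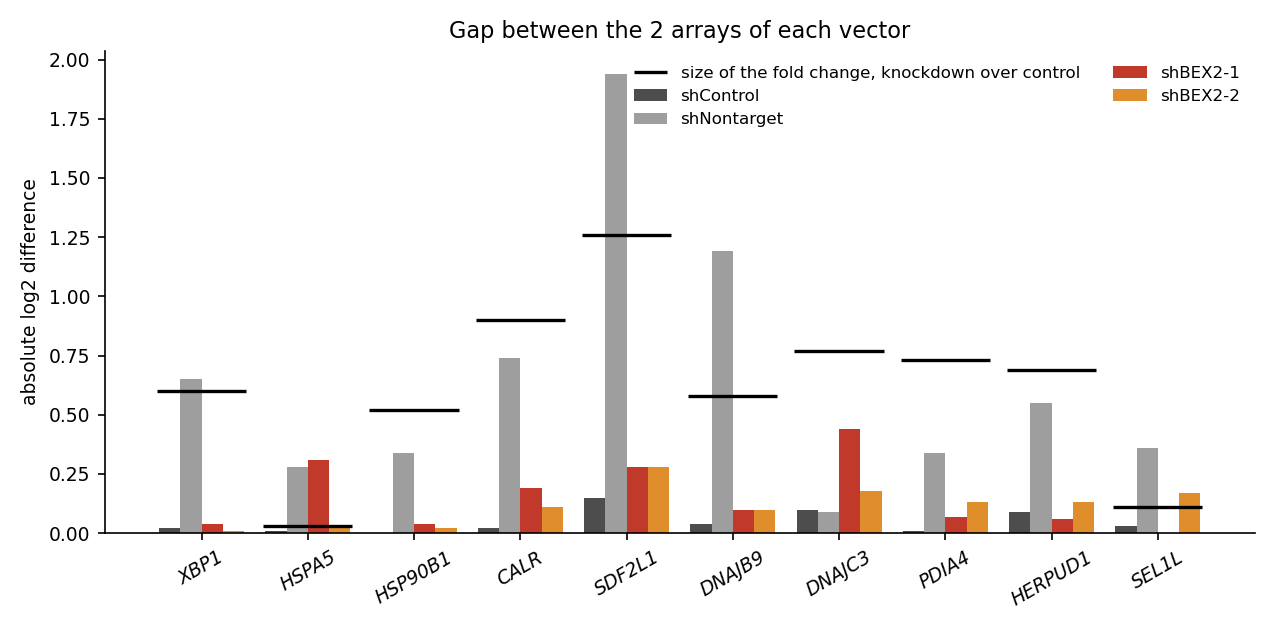
Absolute log2 difference between the 2 arrays of each vector for each gene, as bars that start at 0, with a black line at the absolute log2 fold change between knockdown and control. The shNontarget bars reach 1.94 in SDF2L1 and 1.19 in DNAJB9, above the black line, and DNAJC3 has a shNontarget bar of 0.09.

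With shControl alone as control, 8 of the 10 genes passed (5 higher and 3 lower, DNAJB9 and XBP1 among the latter), and with shNontarget alone none did, while 6842 and 340 genes passed in all. Against shNontarget alone the adjusted p was 0.101 for CALR, 0.112 for HERPUD1, 0.0861 for DNAJC3 and 0.0728 for PDIA4. The fold changes of the genes called in the main comparison kept their sign with either vector, while how far their sizes differed varied by gene. CALR was at 0.76 against shControl and at 1.03 against shNontarget, SDF2L1 at 1.24 and 1.28, and HERPUD1 at -0.62 and -0.77.

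The genes around the 10 were described by lists that hold none of them. These lists were compiled with earlier results of these data known, so that their counts are not independent of that choice. Of 7 lists for the endoplasmic reticulum and its export, with 122 genes of which 118 were tested, 17 genes were higher (14.4%) and none was lower (0%), where 6.68% of all genes tested were higher and 6.26% lower, and the median log2 fold change was 0.14. The arrays of the groups did not overlap for 27 of the 118 (22.9%, near the 22.2% of all genes). The count of 17 higher genes fell to between 2 and 5 without any 1 shControl or knockdown array. It was 28 with 1 lower without shNontarget replicate 1 and 19 with 7 lower without shNontarget replicate 2. With shControl alone as control 35 were higher and 9 lower, and with shNontarget alone none passed. With array weights 44 were higher and 14 lower, and without the filter on dim probes 7 were higher. The count of all genes that passed also rose with shControl alone and with array weights and fell with shNontarget alone. The counts of the lists in these settings are therefore not a result about the lists. The median moved to 0.24 without shNontarget replicate 1 and to 0.04 without shNontarget replicate 2.

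Among the sensors and the factors that activate XBP1, none of 12 genes passed. ERN1, which encodes IRE1, was at -0.31 (SE 0.31, adjusted p = 0.574), and ATF6 was at 0.28 (SE 0.18, adjusted p = 0.369). The probe of ERN1 was dim, with normalized levels from -4.69 to -3.3 on control arrays and from -4.68 to -3.98 on knockdown arrays. Of 14 chaperones and cochaperones tested 4 were higher, led by MANF, a stress-induced secreted protein that binds HSPA5, at 0.88 (SE 0.21, adjusted p = 0.0271), and by the J protein DNAJC1 at 0.66 (adjusted p = 0.0433). The median was 0.19. Of 20 disulfide isomerases, oxidases and prolyl isomerases tested 3 were higher, led by ERO1A, named ERO1L on the array, the oxidase that reoxidises disulfide isomerases, at 0.71 (SE 0.19, adjusted p = 0.0377), and PDIA3, the isomerase that works with calreticulin, at 0.62 (adjusted p = 0.0193). The median was 0.25, and 0.14 without shNontarget replicate 2. Of all genes tested 6.68% were higher, and with lists this short each count rests on few genes. Without any 1 shControl or knockdown array, none of the chaperones and between 0 and 2 of the isomerases and oxidases were higher.

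Of 23 genes of endoplasmic reticulum-associated degradation 1 was higher, VCP, the ATPase that extracts substrates, at 0.48 (adjusted p = 0.0367), which is near the 6.68% of all genes, and the median was -0.08. Of 20 genes of the translocon and signal peptidase 3 were higher, where 6.68% of all genes were. They were led by SSR3, a subunit of the translocon-associated protein complex, at 0.94 (SE 0.17, adjusted p = 0.00941), and SPCS3, a subunit of the signal peptidase, at 0.85 (adjusted p = 0.00928). Of 11 oligosaccharyltransferase genes tested 1 was higher, the catalytic subunit STT3B, at 0.50 (adjusted p = 0.0493), which is also near the 6.68% of all genes. Of 18 genes of the COPII coat and of retrieval receptors 5 were higher, where 6.68% of all genes were. They were led by LMAN1, a cargo receptor for glycoproteins, at 0.96 (SE 0.21, adjusted p = 0.0194), and KDELR2, a receptor that returns chaperones from the Golgi, at 0.83 (adjusted p = 0.0475). The median of that list, 0.33, was the highest of the 9. LMAN1 was dim, with normalized levels from -4.14 to -3.28 on control arrays and from -2.79 to -2.47 on knockdown arrays. Without any 1 shControl or knockdown array, none of the degradation and oligosaccharyltransferase genes, 2 genes of the translocon list and between 0 and 1 of the COPII list were higher.

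**Figure D5:**
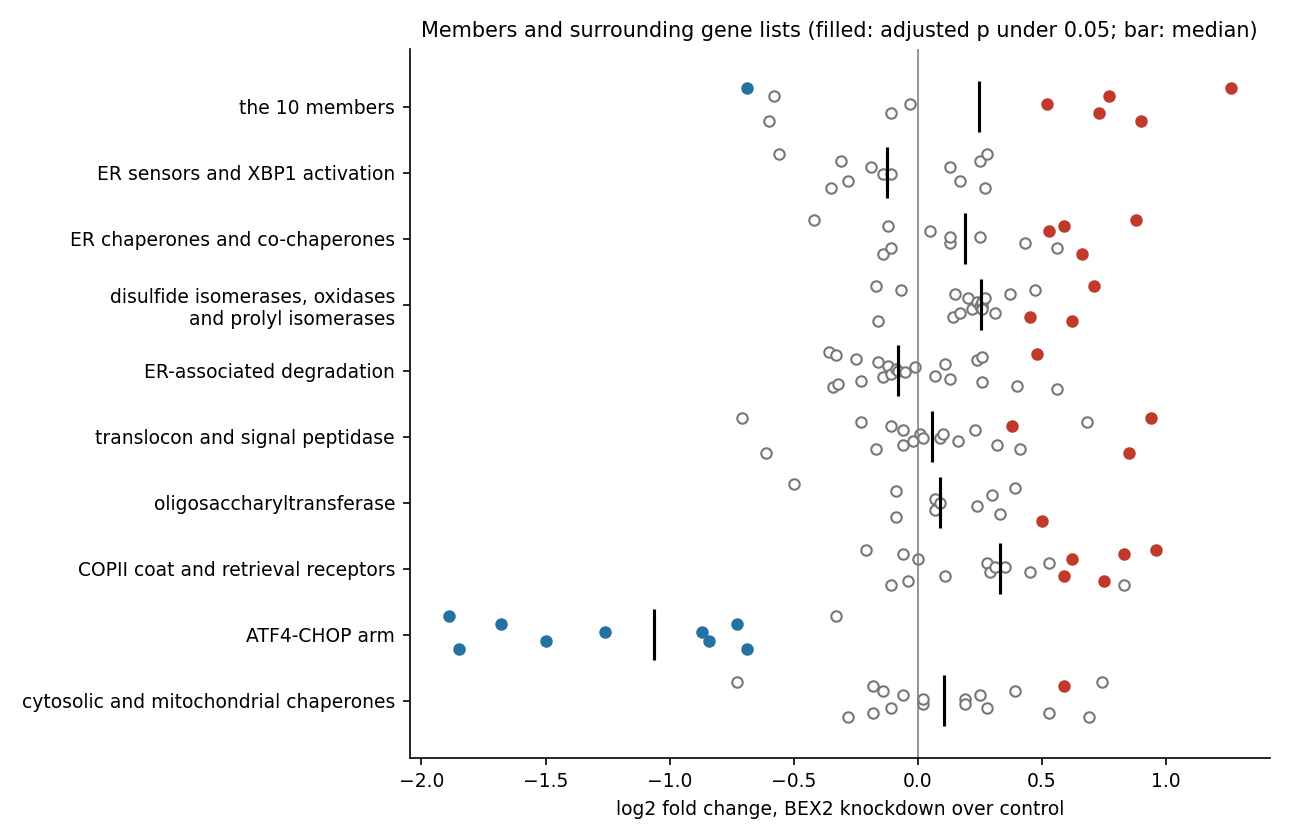
Log2 fold change of BEX2 knockdown over control for the 10 genes and for each tested gene of 9 lists around them, where filled points have an adjusted p under 0.05 and bars are medians. Filled points of the endoplasmic reticulum lists lie to the right of 0, and those of the ATF4-CHOP arm lie to the left, with a median of -1.07.

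The ATF4-CHOP arm, the other transcriptional branch, had 9 of 10 genes lower and none higher, where 6.26% of all genes tested were lower, with a median of -1.07. Among them were SESN2 at -1.89, ASNS at -1.85, DDIT3 at -1.68 (adjusted p = 0.00112) and ATF4 at -0.69 (adjusted p = 0.0473). The count was 4 against shNontarget alone and 6 without shBEX2-2 replicate 1. This list too was compiled with earlier results of these data known, so that its count is not independent of that choice. Of 18 chaperones of the cytosol and mitochondria, set beside the 10 as chaperones outside the endoplasmic reticulum, 1 was higher, HSPA4, at 0.59 (adjusted p = 0.0415), which is near the 6.68% of all genes. The median was 0.10, and between 0.02 and 0.24 without 1 of the shNontarget arrays.

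The 10 genes are set out here by exact match to the promoter element. With only 1 of them called lower, the matches cannot show whether the element goes with direction. Of the 6 genes with a match to either form, HSP90B1, CALR and SDF2L1 were higher, HERPUD1 was lower and XBP1 and HSPA5 did not pass, and of the 4 without a match, DNAJC3 and PDIA4 were higher and DNAJB9 and SEL1L did not pass. In all, 46 of 35116 promoters (0.131%) held either form. In the 7 lists, 5 of 104 genes with a promoter window held a match, CANX, CRELD2, ERO1B, HYOU1 and PDIA6, which are named here after their values were seen. Of these CRELD2 was higher at 0.59 (adjusted p = 0.0425), CANX was at 0.56 (adjusted p = 0.0606), PDIA6 at 0.22 (adjusted p = 0.39) and HYOU1 at 0.13 (adjusted p = 0.571), and ERO1B was not tested.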

How the data were processed

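Each of the vectors shControl, shNontarget, shBEX2-1 and shBEX2-2 had 2 arrays of HuCCT1 RNA. Per the labels and headers, total RNA was labelled with Cy3 by Agilent's low-input method, hybridised to single-colour arrays of 1 slide and read with Agilent Feature Extraction 10.7.3.1. The deposited processed intensity of each spot is background-subtracted and detrended by that software, with surrogates for low values (between 19.9% and 25.9% of non-control spots), with no scaling from one array to another. A deposited table for the series as a whole gives these intensities again, to within 0.497%.

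Control spots were left out, and spots marked as non-uniform (between 3 and 15 per array) were missing values. Intensities were taken to log2, each array's 75th percentile was subtracted, and spots of a probe were averaged. A probe was kept if it was well above background on 4 or more of 8 arrays, and the brightest stood for each gene, leaving 20464 genes under the names of the array design. limma 3.58.1 (R 4.3.3, statmod 1.5.0) compared 4 knockdown with 4 control arrays, with a variance trend, and a model of 4 vectors gave the other comparisons. The threshold was a Benjamini-Hochberg adjusted p of 0.05 over all genes. Signal over background and the number of arrays limit the precision. The steps were tested on simulated data. Files were read with Python 3.11.15, numpy 2.4.6 and pandas 2.3.3, and figures were drawn with matplotlib 3.10.9.

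The 10 genes and the 9 lists, compiled by hand with 150 genes, were chosen with earlier results of these data known. Genes named beside the 10 are BEX2, the 2 largest rises and falls among the called genes of each list, ATF4, DDIT3, ATF6, ERN1 and the leading marker of each cell type, and the text says where a name falls outside this rule. Probe positions are those of the array design in hg19, promoters and their positions those of RefSeq in GRCh38.p14, and no position was converted between them. Retrieval signals of the proteins were not analysed here. Arrays with the same replicate number were taken as pairs, since the deposited names give each number a day of its own, without saying what was done on it. Correlated over genes between vectors, the differences of replicate 1 from replicate 2 had r of 0.259, 0.126, 0.113, -0.063, 0.207 and 0.228 in the 6 pairs of vectors. Alternatives were other normalizations (quantile, normexp with an offset of 50, and the series table), no filter on dim probes, a mean over probes per gene, a replicate block, a random block by vector, the model of 4 vectors, array weights, no variance trend, either control vector by itself, leaving out any 1 array, and the t-test that the methods name.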

Additional observations from a re-analysis of the deposited data

Results flagged for a closer look

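Over the 10 genes and BEX2, 22 groups of 4 arrays were searched for an array far from the other 3, and 1 was found, where chance would give about 1 in 20. CALR on shNontarget replicate 2 had a normalized level of 5.61, and the other control arrays had between 6.24 and 6.35. The gap to the nearest array was 0.851 of the range of the 4 arrays. In the BEX2-knockdown arrays CALR was higher than on all 4 control arrays with and without this array.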

How the results depend on the processing

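In BEX2 knockdown versus control, the fold changes of CALR, SDF2L1, HSP90B1, DNAJC3, PDIA4, HERPUD1, XBP1, DNAJB9 and SEL1L had 1 direction each in all 22 alternatives. All of these bring the arrays to a common level. Before that scaling, HSP90B1 intensities ran from 34300 to 48800 on control and from 35200 to 53400 on knockdown arrays. Those of CALR, SDF2L1, DNAJC3 and PDIA4 overlapped too, and those of HERPUD1, XBP1, DNAJB9, SEL1L and HSPA5 were lower on every knockdown array. The rises thus rest on the scaling. HSPA5 was between -0.148 and 0.041 with 1 array left out and at 0.001 against shNontarget alone. Counts of all genes that passed were 9468 with array weights, 6842 against shControl alone, 340 against shNontarget alone, 5419 by the methods' t-test unadjusted, 2170 after Benjamini-Hochberg, and between 1243 and 4728 with 1 array left out. Of the 10 genes, 0 passed against shNontarget alone and between 2 and 8 with 1 array left out. With the replicate block, which takes the pairing of the arrays into account, 2456 genes and the same 6 of the 10 passed, and it changed no other call on the 10 genes than that of HERPUD1 in shBEX2-2. Of all genes, 1500 passed with quantile normalization and 1219 with array weights in shBEX2-1 versus control vectors. In shBEX2-1 versus control vectors, 2409 genes passed with normexp and 638 against shNontarget alone, with between 0 and 10821 when 1 array was left out. Of the 10 genes, 4 passed there with quantile normalization, 1 with normexp, 1 with array weights and between 0 and 9 with 1 array left out. In shBEX2-2, 1269 genes passed against shNontarget alone and between 0 and 11149 with 1 array left out, and of the 10 genes 6 passed with quantile normalization, 5 with array weights, 1 against either control vector alone and between 0 and 9 with 1 array left out. SEL1L was between -0.17 and 0.008 there with 1 array left out. In the main fit of shBEX2-2, 9.67% of all genes passed. In shNontarget versus shControl, between 0 and 9466 genes, and between 0 and 4 of the 10, passed with 1 array left out. With 1 array left out, signs turned there for HSPA5 (from -0.204 to 0.080), HSP90B1 (-0.102 to 0.238), DNAJB9 (-0.653 to 0.533), DNAJC3 (-0.063 to 0.042), HERPUD1 (-0.12 to 0.428), XBP1 (-0.191 to 0.457), SEL1L (-0.207 to 0.149), CALR (-0.641 to 0.1) and SDF2L1 (-1.016 to 0.921), and HSP90B1 was at -0.069 with quantile normalization. In shBEX2-1 versus shBEX2-2, 11 genes passed with quantile normalization, 6 with the mean of a gene's probes, 2938 with array weights, 0 with normexp, without the filter and with the replicate block, and between 0 and 3016 with 1 array left out. Of the 10 genes, 2 passed with array weights and between 0 and 2 with 1 array left out. With 1 array left out, signs turned there for DNAJB9 (-0.007 to 0.092), DNAJC3 (-0.308 to 0.134), SEL1L (-0.144 to 0.030), CALR (-0.177 to 0.010) and SDF2L1 (-0.026 to 0.253), and SDF2L1 was at -0.022 with quantile normalization. Normexp moved the median of all genes to 0.095 in the main comparison, to 0.15 in shBEX2-1 and to 0.121 between the sublines. The causes were not tested.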
